A study of Mus musculus with 6 samples.

Results

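MARK, NUAK, BRSK and SNRK kinases are the substrates of the tumour suppressor kinase LKB1 (gene symbol Stk11) outside the AMPK and SIK families. Their 9 genes (Mark1, Mark2, Mark3, Mark4, Nuak1, Nuak2, Brsk1, Brsk2 and Snrk) were taken by symbol from a table of 55487 genes, and all 9 were found. Bulk RNA was sequenced from lung tumours of mice, labelled KP in both groups. Tumours carried sgNeo, the control with wild-type Lkb1, or sgLkb1, the guide that targets Lkb1. Cells positive for GFP and negative for CD45 were sorted out of digested lung 11 weeks after tumour initiation. There were 3 libraries per genotype, labelled as replicates without saying whether they came from separate animals, so p-values measure the spread between these libraries, which may be technical. The mouse strain, the vector that carried the guide and the efficiency of editing are not stated in the labels. Values of a group are given below in the order of replicates 1, 2 and 3.

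LKB1 switches these kinases on by phosphorylating one threonine in the activation loop of their kinase domain, so that loss of LKB1 is known to act on their activity and not necessarily on their transcripts. MARK kinases, the mammalian counterparts of the polarity protein PAR-1, release microtubule-associated proteins from microtubules and keep basolateral proteins out of the apical domain. NUAK kinases act on the myosin phosphatase and so on contractility and adhesion, BRSK kinases set the polarity of neurons, and SNRK is a relative known from heart, endothelium and fat. The comparison asks whether transcripts of these kinases differ between tumour cells with mutant and with wild-type Lkb1.

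The site that LKB1 phosphorylates in these 9 proteins was read from their coding sequences in GENCODE M21 (GRCm38). It is shown because every member carries it and because it is what LKB1 acts on. Each sequence is the 42 bases of coding strand around the site, 5′ to 3′, and the capitals mark the codon of the threonine that LKB1 phosphorylates.
Mark1: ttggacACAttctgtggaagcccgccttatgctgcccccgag
Mark2: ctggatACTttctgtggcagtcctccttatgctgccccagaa
Mark3: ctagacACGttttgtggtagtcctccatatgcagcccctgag
Mark4: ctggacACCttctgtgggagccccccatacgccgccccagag
Nuak1: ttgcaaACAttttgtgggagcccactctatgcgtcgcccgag
Nuak2: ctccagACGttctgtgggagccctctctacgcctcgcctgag
Brsk1: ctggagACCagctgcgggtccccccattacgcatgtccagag
Brsk2: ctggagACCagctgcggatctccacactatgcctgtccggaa
Snrk: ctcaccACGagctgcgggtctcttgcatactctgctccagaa
The pairs of windows most alike were within subfamilies. Brsk1 and Brsk2 shared 34 of 42 bases, as did Mark1 with Mark2 and with Mark4, and Nuak1 and Nuak2 shared 33. Mark1 and Mark3 shared 32, no more than Mark1 with Nuak1 or Mark4 with Nuak2. Snrk stood furthest from the others, as it shared at most 26 bases with any of them (Brsk1) and as few as 17 (Nuak1). Its 23 shared with Nuak2 were as many as Mark3 shared with Brsk1 or with Brsk2. The Nuak2 codon lies at chr1:132330009-132330011 on the plus strand, in exon 6 of the transcript read, and the Snrk codon at chr9:122137529-122137531 on the plus strand, in exon 2. The Mark1 codon lies at chr1:184919662-184919664 on the minus strand, in exon 8, and the codons of Mark2, Mark3 and Mark4 are also in exon 8 of their transcripts.

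Total expected counts ranged from 26007503 to 28986526 with sgNeo and from 29613678 to 41729299 with sgLkb1. The targeted gene Stk11 had a lower level with sgLkb1, at 61.5 ± 25.3 against 24.8 ± 1.15 CPM (counts scaled to library size, relative to TMM-scaled library sizes; SD, n = 3; edgeR adjusted p = 0.023). Of 6 fits that each left out 1 library, all but that without sgNeo replicate 2 lost the call. All 6 lung epithelial markers were found in every library. Epcam rose from 501 ± 60.2 to 1073 ± 235 CPM, Nkx2-1 fell from 274 ± 18.9 to 129 ± 42.1 CPM and Sftpc from 75931 ± 6733 to 8691 ± 2660 CPM, while Krt8 did not pass, at 2052 ± 246 and 3075 ± 306 CPM. With 1 library left out, 0 to 2 of the 6 were higher and 1 or 2 lower. Of 8 leukocyte markers 1 fell and none was at 0 in every library, and they summed to between 12.5 and 27.1 CPM. Fibroblast markers summed to between 37.2 and 117 CPM in sgNeo and to 178, 259 and 1393 CPM in sgLkb1 replicates 1, 2 and 3, so that sgLkb1 replicate 3 stood apart. Of 8 fibroblast markers 4 rose, namely Col3a1, Col1a2, Col1a1 and Pdgfra, and none of the 8 was at 0 in every library. For these and the other marker lists, the shares of all genes called were 7.05% higher and 8.6% lower. Without sgLkb1 replicate 3, 1 of the 8 rose, without sgNeo replicate 1, 2 did, and without sgNeo replicate 2 or 3 none did. Without sgLkb1 replicate 1 or 2, 5 rose. With all libraries limma-voom called 1, a replicate block 0 and the fit with no filter 5. Of 4 mesothelial markers Msln rose in the fit of all libraries, none rose without sgNeo replicate 2, and 3 rose without sgLkb1 replicate 1. The mesothelial markers other than Msln summed to at most 0.963 CPM in sgNeo and to 1.22, 3.41 and 37.1 CPM in sgLkb1 replicates 1, 2 and 3.

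Nuak2 was lower in sgLkb1 libraries and was the only one of the 9 kinases whose transcript passed the test. Of the 7 kinases with enough counts to test, 1 was lower and 0 were higher at an adjusted p of 0.05 (edgeR's quasi-likelihood test, adjusted over all genes). Of all 15978 genes tested, 15.7% passed in either direction, 8.6% lower and 7.05% higher, so 1 of 7 is near the share of the whole transcriptome. At an unadjusted p under 0.05 there were 2 lower and 0 higher, against 30.3% of all genes in either direction. DESeq2 and limma-voom likewise called 1 lower and 0 higher. The groups did not overlap for 3 of the 7, against 36.5% of all genes. Nuak2 and Snrk had all sgLkb1 values below (20.3% of all genes), and Mark1 had them above (16.3%). Mark1 reached the filter's level in 3 sgLkb1 libraries and 1 sgNeo library, and Nuak1 in 2 and 1. Both thus entered the 7 largely through sgLkb1, where their means were higher. The median log2 fold change of the 7 was -0.08, and that of all genes tested was 0.02. In bulk libraries, fewer cells of a type and less RNA per cell cannot be told apart.

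**Figure D1:**
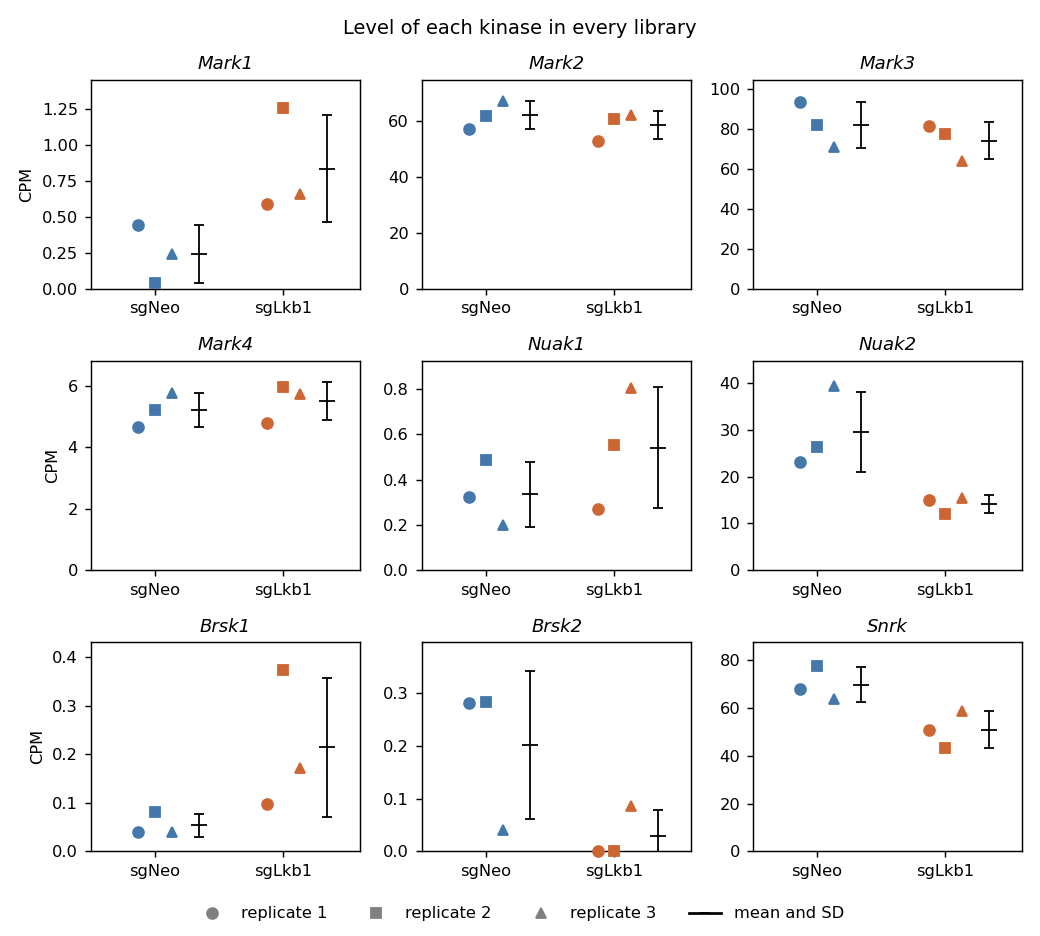
Level of each of the 9 kinases in CPM in every library, with the 3 sgNeo libraries in blue, the 3 sgLkb1 libraries in orange, and the mean and SD of each group beside its points. Each panel has its own linear axis from 0. The sgLkb1 libraries lie below all sgNeo libraries for Nuak2 and Snrk and above them for Mark1 and Brsk1, and Mark1, Nuak1, Brsk1 and Brsk2 reach at most 1.26 CPM.

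Levels of the kinases can be set side by side only per length, in CPM per kb of merged exons. In sgNeo libraries Snrk was the highest, at 12.1 ± 1.24 CPM per kb. Mark3, Mark2 and Nuak2 followed, at 8.45 ± 1.17, 7.82 ± 0.64 and 7.54 ± 2.19 CPM per kb, and these 3 did not differ beyond their spread. Mark4 was at 1.12 ± 0.12 CPM per kb, and Nuak1, Mark1, Brsk2 and Brsk1 were at 0.060, 0.055, 0.033 and 0.013 CPM per kb. The sgNeo libraries thus held transcripts mainly of 4 of the 9 kinases, and the cells they came from were not told apart. In sgLkb1 libraries Snrk, Mark3 and Mark2 were at 8.81 ± 1.35, 7.64 ± 0.96 and 7.38 ± 0.64 CPM per kb, with overlapping ranges. Nuak2, at 3.61 ± 0.48 CPM per kb, lay below all of them in every sgLkb1 library. When each gene was divided instead by the length of the transcript with its longest coding sequence, Mark3 came first, with Mark2 next and then Snrk, in both groups. The order of those 3 therefore depends on the length used, while Nuak2 and then Mark4 stayed next in order in both groups under both lengths.

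**Figure D2:**
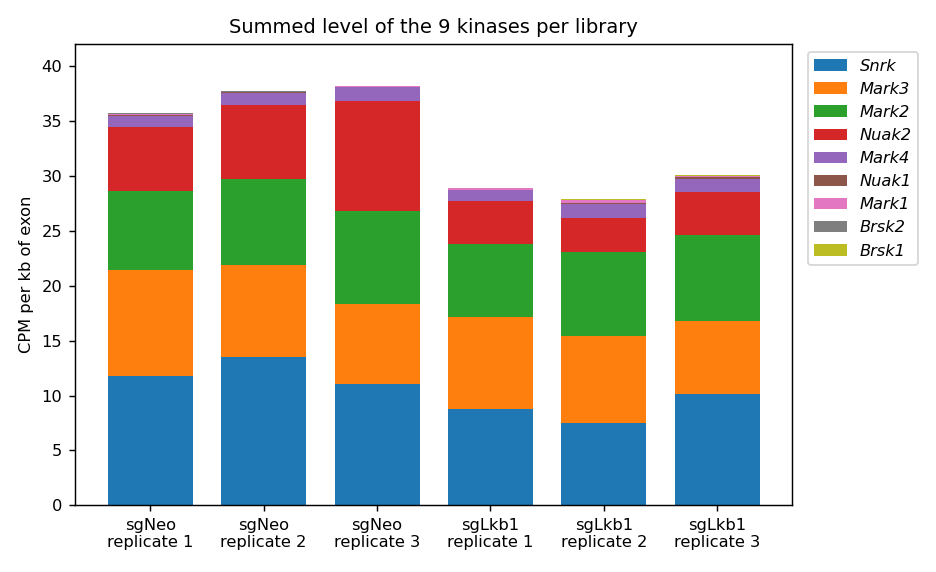
Stacked bars of the 9 kinases in CPM per kb of merged exons, 1 bar per library. Nuak2 takes 16.5 to 26.2% of each sgNeo bar and 11.0 to 13.3% of each sgLkb1 bar, and Mark1, Nuak1, Brsk1 and Brsk2 are too low to be seen well.

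Summed over the 9 genes, the sgNeo libraries held 247, 254 and 247 CPM and the sgLkb1 libraries 206, 201 and 207 CPM. All sgLkb1 sums lay below all sgNeo sums, as did the values of 20.3% of single genes tested. The sums are not a trait of the family as a whole. Mean levels were 69.9 and 50.9 CPM for Snrk, which was not called, and 29.6 and 14.1 CPM for Nuak2. Mark2 and Mark3, which hold much of the sum, overlapped between the groups. Within the summed CPM per kb, the share of Nuak2 was 16.5 to 26.2% in sgNeo and 11.0 to 13.3% in sgLkb1. With transcript lengths these shares were 9.50 to 16.4% and 5.95 to 7.73%, so the groups stood apart with either length.

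Nuak2, a kinase that raises actomyosin contractility and is induced by YAP and by cell stress, lies at chr1:132316126-132333488 on the plus strand (GRCm38). The sgNeo libraries held 23.0, 26.4 and 39.3 CPM of it, the sgLkb1 libraries 15.1, 12.0 and 15.4 CPM. The highest sgLkb1 library was thus below the lowest sgNeo library, and sgNeo replicate 3 stood above the other sgNeo libraries. These levels rest on 574, 652 and 986 counts in sgNeo and 616, 457 and 535 in sgLkb1. Means ± SD (n = 3) were 29.6 ± 8.58 CPM for sgNeo and 14.1 ± 1.86 CPM for sgLkb1, with a log2 fold change of -1.06 (SE 0.24, 95% interval -1.61 to -0.52, edgeR adjusted p = 0.021), or 0.478 times the sgNeo level. By p it ranked 1497 of 15978 genes. The ratio of Nuak2 to Mark2 in CPM was 0.403, 0.427 and 0.584 for sgNeo and 0.286, 0.197 and 0.247 for sgLkb1, which do not overlap. Against Snrk the ratios were 0.339, 0.339 and 0.615 for sgNeo and 0.297, 0.277 and 0.261 for sgLkb1, which lie close without overlap. Against the scarce Nuak1 they overlapped, at 71.8, 54.3 and 197 for sgNeo and 56.0, 21.8 and 19.1 for sgLkb1.

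The call for Nuak2 was made in 12 of 15 alternatives, and the direction was the same in all 15. It was lost in the fits that lacked sgNeo replicate 2, sgNeo replicate 3 and sgLkb1 replicate 2, with log2 fold changes of -1.15, -0.81 and -0.93 and edgeR adjusted p of 0.058, 0.062 and 0.079. Leaving out sgNeo replicate 3, the library with the highest level, gave the smallest difference. Over the other 9 settings, which kept all libraries, the log2 fold change lay between -1.06 and -1.03.

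**Figure D3:**
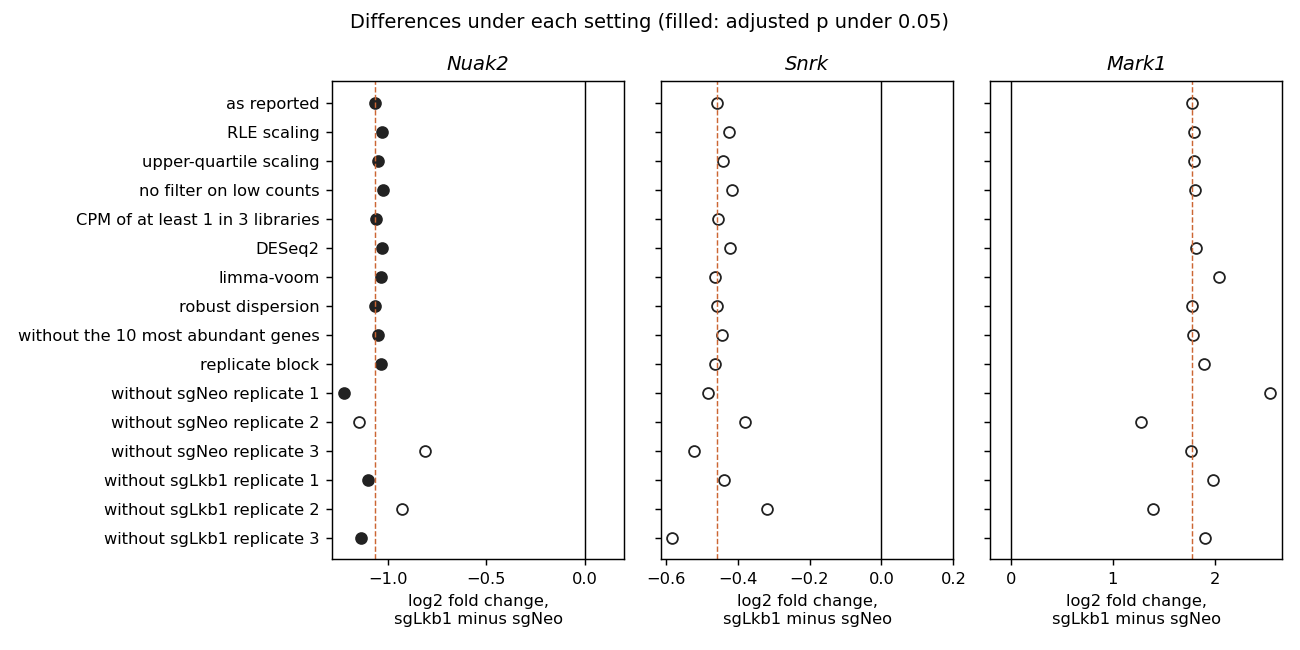
Log2 fold change (sgLkb1 minus sgNeo, horizontal axis) of Nuak2, Snrk and Mark1 under each setting (vertical axis), with the reported value as a dashed line and filled points where the adjusted p was under 0.05. Nuak2 stays between -1.22 and -0.81 and is open in 3 of the 6 fits that leave out a library, and Snrk and Mark1 are open throughout.

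The 2 genes with a mean of at least 5 CPM whose log2 CPM followed Nuak2 most closely over the 6 libraries were Psme1, a subunit of the interferon-induced proteasome activator, and Fam187b. Pearson's r was 0.99 for each, over 6 libraries that fall into 2 groups and from 10962 genes searched, and 102 genes had an r above 0.95. For Psme1 the sgNeo libraries held 188, 199 and 249 CPM, the sgLkb1 libraries 140, 115 and 135 CPM. Like Nuak2 it was highest in sgNeo replicate 3 and lowest in sgLkb1 replicate 2. Fam187b was at 12.7, 12.7 and 16.7 CPM in sgNeo and 9.83, 8.37 and 9.70 CPM in sgLkb1.

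Nuak1, the other NUAK kinase, was near the limit of what these libraries can count. The sgNeo libraries held 0.32, 0.49 and 0.20 CPM, the sgLkb1 libraries 0.27, 0.55 and 0.80 CPM. The groups overlapped. The log2 fold change was 0.68 (SE 0.69, 95% interval -0.91 to 2.27, edgeR adjusted p = 0.56), and the interval holds both a fall and a several-fold rise. The ratio of the summed counts, 60 in sgLkb1 and 25 in sgNeo, was 1.58 after scaling, with an exact interval of 0.973 to 2.62 that covers counting error only. The highest Nuak1 level was in sgLkb1 replicate 3, the library in which fibroblast markers summed to 1393 CPM and Col3a1 was at 624 CPM. The fit lacking that library gave a log2 fold change of 0.27. The part of fibroblast RNA in the level of Nuak1 was not tested.

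Snrk, at chr9:122117266-122169702 on the plus strand, had a lower mean in sgLkb1 but did not pass the test. Its sgNeo values were 67.9, 77.8 and 63.9 CPM, its sgLkb1 values 50.7, 43.2 and 58.8 CPM. The groups did not overlap, with sgLkb1 replicate 3 the closest to sgNeo. The means were 69.9 ± 7.18 for sgNeo and 50.9 ± 7.80 CPM for sgLkb1, with a log2 fold change of -0.46 (SE 0.17, 95% interval -0.84 to -0.075, edgeR adjusted p = 0.10). The unadjusted p was 0.025. It was not called in any of the 15 alternatives, over which the adjusted p was between 0.073 and 0.34 and the log2 fold change between -0.58 and -0.32. Endothelial cells are known to express Snrk, so the endothelial markers stand beside it. Of 10 such markers 3 rose and 1 fell, where 7.05% of all genes were higher and 8.6% lower. In fits lacking 1 sgNeo library, 1 or 2 rose, and none of the 10 was at 0 in every library. Cdh5, the endothelial cadherin, rose from 3.82 ± 0.87 to 14.6 ± 4.15 CPM, and Kdr and Emcn also rose, while the adhesion protein Esam fell from 211 ± 29.1 to 54.1 ± 23.5 CPM. All 10 markers summed to between 258 and 313 CPM in sgNeo and between 144 and 259 CPM in sgLkb1. Esam made up most of the sgNeo sums. The other 9, a sum formed after the values were seen, came to between 50.8 and 87.5 CPM in sgNeo and between 98.4 and 178 CPM in sgLkb1. Among sgLkb1 libraries replicate 3 had the highest Snrk and the highest sum of all 10. Among sgNeo libraries it was the reverse, as replicate 2 had the highest Snrk and the lowest sum of all 10. The sum of the other 9 was 87.5, 80.4 and 50.8 CPM in sgNeo, lowest in replicate 3, where Snrk was lowest too. In sgLkb1 it was 98.4, 109 and 178 CPM, highest in replicate 3, as was Snrk. In both groups replicates 1 and 2 stood in opposite order for that sum and Snrk. Between the groups, the sum of the 9 was higher in sgLkb1 and Snrk lower. The part of endothelial RNA in the level of Snrk was not tested.

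Mark2 and Mark3, the abundant MARK kinases, differed by less than the spread between libraries. Mark2, known as PAR-1b, had sgNeo values of 57.2, 61.8 and 67.2 CPM and sgLkb1 values of 52.7, 60.9 and 62.1 CPM. Its log2 fold change was -0.08 (SE 0.14, 95% interval -0.42 to 0.25, edgeR adjusted p = 0.74). Mark3, which phosphorylates the scaffold KSR1 and the phosphatase CDC25C, was at 93.5, 81.7 and 70.7 CPM in sgNeo and 81.5, 77.2 and 63.6 CPM in sgLkb1. Its log2 fold change was -0.15 (SE 0.17, 95% interval -0.53 to 0.24, edgeR adjusted p = 0.61). For both kinases the groups overlapped, and their intervals leave out a doubling and a halving. Mark4, a centrosomal and microtubule-bound member, was at 4.65, 5.22 and 5.78 CPM in sgNeo and 4.80, 5.96 and 5.74 CPM in sgLkb1. Its log2 fold change was 0.08 (SE 0.27, 95% interval -0.55 to 0.70, edgeR adjusted p = 0.89), and turned to -0.0079 without sgNeo replicate 1.

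Mark1, a MARK kinase best known from brain, was low in all libraries. The sgNeo libraries gave 11, 1 and 6 counts, the sgLkb1 libraries 24, 48 and 23. These are levels of 0.44, 0.040 and 0.24 CPM in sgNeo and of 0.59, 1.26 and 0.66 CPM in sgLkb1, with no overlap of the groups. The fitted log2 fold change was 1.78 (SE 0.82, 95% interval -0.10 to 3.66, edgeR adjusted p = 0.19), which did not pass. Summed over libraries there were 95 counts in sgLkb1 and 18 in sgNeo, a scaled ratio of 3.46 with an exact interval of 2.08 to 6.10 for counting error only. Mark1 entered the test because all 3 sgLkb1 libraries, and 1 sgNeo library, reached the filter's level of 0.34 CPM before scaling. Without sgNeo replicate 1 the log2 fold change was 2.54, without sgNeo replicate 2 it was 1.28, and without sgLkb1 replicate 2 it was 1.39, so the size rests on single libraries of both groups.

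Brsk1 and Brsk2, kinases of neurons and endocrine cells, were below the filter and were not tested. Brsk1 had 1, 2 and 1 counts in the sgNeo libraries and 4, 14.25 and 6 expected counts in the sgLkb1 libraries. The scaled ratio of the sums was 3.94 (exact interval 1.35 to 15.6, counting error only). An exon of Brsk1 overlaps one of Tmem150b on the other strand. Tmem150b was at 2.59 ± 0.29 and 3.89 ± 0.89 CPM, above Brsk1 in every library. Without a known strand setting, reads of these overlapping genes cannot be told apart. Brsk2 had 7, 7 and 1 counts in sgNeo and 0, 0 and 3 in sgLkb1, so sgNeo was higher by a scaled ratio of 7.62 (exact interval 2.15 to 41.0, counting error only). In the 2 libraries without a count, a level of up to 0.073 and 0.079 CPM is allowed by 3 counts. The fit with no filter gave log2 fold changes of 1.93 for Brsk1 and -2.62 for Brsk2, with edgeR adjusted p of 0.56 and 0.49. The neuroendocrine marker Chga was also near 0, at no more than 0.49 CPM in any library. Of 8 neuroendocrine and neuronal markers 5 were tested and 2 rose: Snap25, a synaptic fusion protein, from 0.70 ± 1.05 to 15.8 ± 2.70 CPM, and Calca, which encodes calcitonin and CGRP, from 0.094 ± 0.047 to 4.12 ± 4.53 CPM. Neither was called without sgNeo replicate 2, and 7.05% of all genes were higher. Both entered the test through sgLkb1, where they are high, as sgNeo held 1, 4 and 48 counts of Snap25 and 3, 3 and 1 of Calca. The count of 2 among the 5 tested therefore depends in part on the filter. Syp, a synaptic vesicle protein, did not pass, at 0.68 ± 0.11 and 0.20 ± 0.082 CPM with no overlap (edgeR adjusted p = 0.11), nor did Uchl1, with means of 1.19 and 0.64 CPM and overlapping groups (edgeR adjusted p = 0.52). The 8 summed to between 2.49 and 5.87 CPM in sgNeo and between 19.7 and 25.9 CPM in sgLkb1. Without Snap25 and Calca the other 6 summed to between 2.33 and 3.92 CPM in sgNeo and between 1.28 and 3.50 CPM in sgLkb1. None of the 8 was at 0 in every library, and their part in the levels of Brsk1 and Brsk2 was not tested.

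Of the 5 AMPK and SIK catalytic subunits, the other LKB1 substrates, 2 rose and 1 fell, where 7.05% of all genes were higher and 8.6% lower. These were Sik1 at 51.9 ± 2.17 and 107 ± 5.61 CPM, Sik2 at 5.91 ± 1.57 and 15.4 ± 0.91 CPM, and Prkaa2 at 9.13 ± 3.59 and 2.27 ± 0.16 CPM. Prkaa1 and Sik3 did not pass (edgeR adjusted p = 0.051 and 0.13). Prkaa1 passed in 8 of 15 alternatives, RLE scaling and DESeq2 among them, so that 3 of the 5 rose there. Whether the MARK, NUAK and SNRK genes respond differently from these 5 was not tested. The partners of LKB1 in its complex, Strada, Stradb, Cab39 and Cab39l, were not called, with log2 fold changes from -0.21 to 0.18, except Cab39l in the fit lacking sgLkb1 replicate 1 (edgeR adjusted p = 0.041). Of 3 related kinases that are not established LKB1 substrates, Hunk fell from 7.45 ± 2.56 to 1.49 ± 0.68 CPM (log2 fold change -2.31, edgeR adjusted p = 0.013, and 0.054 without sgNeo replicate 1). Nim1k, at 1.94 ± 1.12 and 0.54 ± 0.28 CPM, and the mitotic kinase Melk, at 7.15 ± 2.94 and 9.56 ± 3.58 CPM, did not pass.

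**Figure D4:**
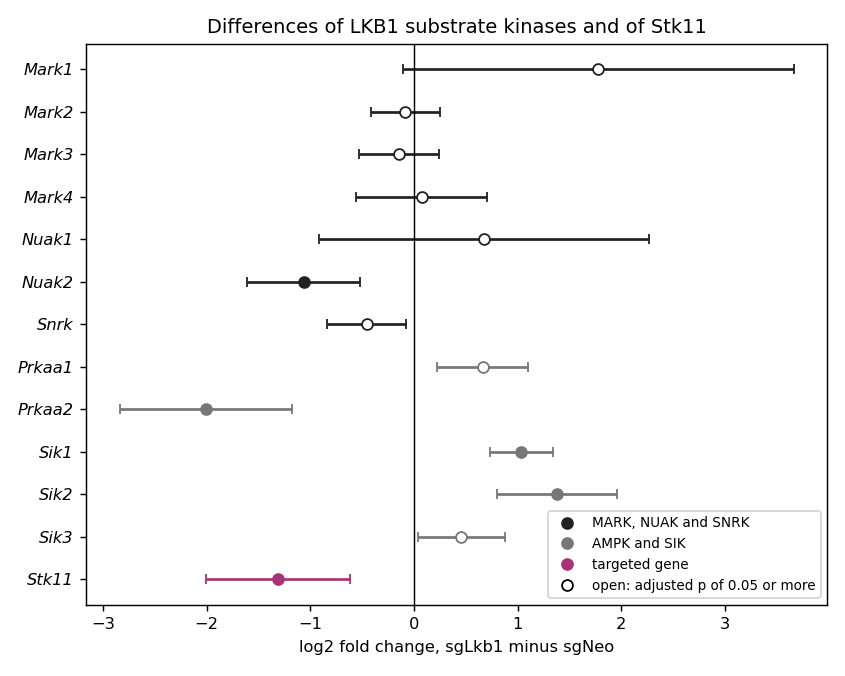
Log2 fold change (sgLkb1 minus sgNeo, horizontal axis) with its 95% interval for the 7 tested MARK, NUAK and SNRK genes in black, AMPK and SIK genes in grey and Stk11 in purple, filled where the adjusted p was under 0.05. Nuak2 is the only filled black point, at -1.06, and the intervals of Mark2 and Mark3 lie close around 0.

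Genes for proteins that MARK kinases phosphorylate were lower in part. Of 15 tested members of a list of 16 substrates, 5 fell and 0 rose, where 8.6% of all genes were lower and 7.05% higher (median log2 fold change -0.57, against 0.02 over all genes). At an unadjusted p under 0.05 there were 6 lower and 2 higher, limma-voom called 5 lower and 0 higher, and DESeq2 5 lower and 1 higher. Hdac7 and Hdac5 are class IIa histone deacetylases, which leave the nucleus once phosphorylated by LKB1-dependent kinases. For Hdac7 the sgNeo values were 64.5, 54.0 and 50.9 CPM and the sgLkb1 values 22.3, 29.8 and 25.4 CPM (log2 fold change -1.13, edgeR adjusted p = 0.0049). Hdac5 was at 62.3, 74.3 and 69.0 CPM in sgNeo and 27.5, 35.2 and 41.3 CPM in sgLkb1 (log2 fold change -0.98, edgeR adjusted p = 0.010). Both genes stood clearly apart between the groups, and the call for Hdac7 was made in all 6 fits that left out a library. Hdac4, another class IIa deacetylase on the list, had a higher mean in sgLkb1 without passing. It was at 22.7 ± 1.38 and 29.0 ± 5.07 CPM (log2 fold change 0.35, edgeR adjusted p = 0.23).

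Pard3, the PAR-3 scaffold of tight junctions, fell from 60.4 ± 4.30 to 36.8 ± 3.61 CPM, and Kif13b, a kinesin that carries polarity cargo, from 20.6 ± 1.90 to 11.8 ± 1.11 CPM. Arhgef2, the microtubule-bound activator of RhoA, is named because it completes the count of 5. It fell from 180 ± 8.61 to 125 ± 13.2 CPM (edgeR adjusted p = 0.048), a call lost in all 6 fits that left out a library and also with RLE or upper-quartile scaling, DESeq2 (adjusted p = 0.062), no filter and the 10 most abundant genes removed. The 5 genes called lower by DESeq2 are therefore not the same 5. Pard3 lost its call without sgNeo replicate 1 or 2, Hdac5 without sgNeo replicate 2 (edgeR adjusted p = 0.054), and Kif13b without sgNeo replicate 1 or 2 or sgLkb1 replicate 2 or 3. Substrates called lower numbered 1 in the fit lacking sgNeo replicate 2, 2 lacking sgNeo replicate 1, and 3 lacking sgLkb1 replicate 2 or 3. Dixdc1, an actin-binding substrate of MARK1 named after its values were seen, did not pass, at 26.1 ± 5.26 and 13.2 ± 5.07 CPM (edgeR adjusted p = 0.061). It passed with DESeq2 (adjusted p = 0.017), with no filter and without sgLkb1 replicate 1 (edgeR adjusted p = 0.011). Ksr1 and Map4, also named after their values were seen, had higher means in sgLkb1 without passing. Ksr1 was at 1.11 ± 0.21 and 2.86 ± 0.90 CPM with no overlap of the groups (edgeR adjusted p = 0.068). Map4 was at 50.8 ± 7.21 and 68.5 ± 12.5 CPM (edgeR adjusted p = 0.16). Mapt, the microtubule protein tau, was at 1.23 ± 0.35 and 0.51 ± 0.38 CPM without passing.

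Polarity proteins, which MARK kinases oppose or are opposed by, had 1 of 13 members lower, the same Pard3, and 0 higher (median log2 fold change -0.18), a share near the 8.6% of all genes that were lower. At an unadjusted p under 0.05 there were 2 lower and 0 higher, and DESeq2 and limma-voom each called 1 lower. Of 12 genes of the myosin phosphatase and its partners, on which NUAK kinases act, 1 fell and 0 rose (1 higher and 2 lower at an unadjusted p under 0.05, 1 higher with DESeq2 and with sgLkb1 replicate 1 left out, 0 with limma-voom), also near that share. Mylk, the myosin light chain kinase, went from 199.7, 167 and 199 CPM in sgNeo to 38.4, 26.0 and 35.0 CPM in sgLkb1, with edgeR adjusted p = 0.00046 for a log2 fold change of -2.51 (SE 0.19). Every sgLkb1 library was far below every sgNeo library, and the call was made in all 6 fits that left out a library. Ppp1r12a, the targeting subunit MYPT1 that NUAK1 phosphorylates, did not pass, at 87.6 ± 10.5 and 83.2 ± 17.2 CPM (edgeR adjusted p = 0.83).

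Of 8 genes induced by YAP, the programme to which Nuak2 belongs, 1 fell and 0 rose with edgeR, near the shares of all genes (8.6% lower, 7.05% higher). The median log2 fold change was 0.10. At an unadjusted p under 0.05 there were 2 higher and 1 lower. DESeq2 called 2 higher and limma-voom 0. With a replicate block, or with sgNeo replicate 3 or sgLkb1 replicate 1 left out, 1 was higher. Amotl2, an angiomotin that feeds back on YAP, fell from 60.8 ± 8.16 to 29.6 ± 3.77 CPM (edgeR adjusted p = 0.0061). Ccn1 was at 155 ± 29.3 and 122 ± 22.7 CPM without passing. Ccn2 and Ankrd1, named after their values were seen, had higher means in sgLkb1 without passing, at 66.7 ± 28.8 and 190.5 ± 109.8 CPM for Ccn2 and 4.16 ± 2.54 and 11.3 ± 4.18 CPM for Ankrd1 (edgeR adjusted p = 0.060 and 0.075). The members of the list thus differed in direction. The 14-3-3 adaptors, which bind proteins phosphorylated by these kinases, had 2 of 7 higher and 0 lower, where 7.05% of all genes were higher (5 higher and 0 lower at an unadjusted p under 0.05, with 3 and 2 higher in DESeq2 and limma-voom). Ywhaq rose from 437 ± 70.9 to 776 ± 155 CPM and Ywhah from 367 ± 37.3 to 570 ± 67.3 CPM. Neither was called in the fits lacking any sgNeo library or sgLkb1 replicate 2, nor was Ywhah in that lacking sgLkb1 replicate 3. Ywhab did not pass, at 390 ± 6.56 and 442 ± 89.9 CPM.

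**Figure D5:**
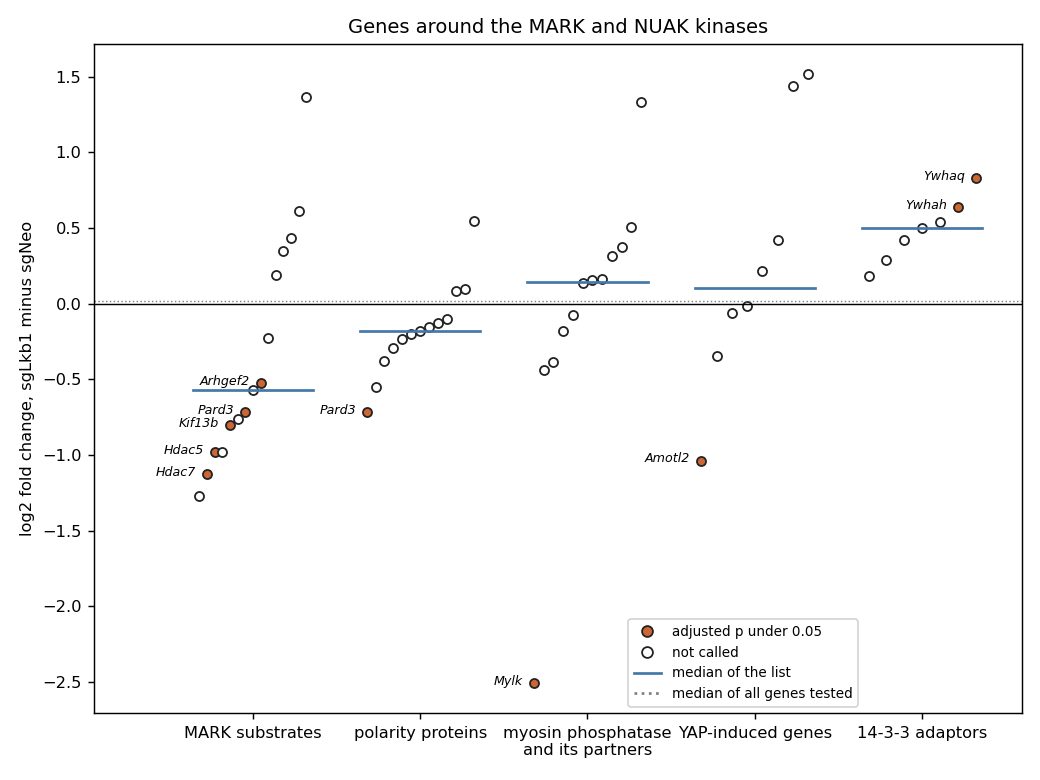
Log2 fold change (sgLkb1 minus sgNeo, vertical axis) of the tested genes of 5 lists around these kinases, ordered by value within each list, with called genes filled and named, the median of each list in blue and the median of all genes dotted. Called MARK substrates all lie below 0, Mylk is the lowest point at -2.51, and both called 14-3-3 genes lie above 0.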

How the data were processed

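The authors deposited expected counts per gene, made with STAR and RSEM on build GRCm38 per the submitters' processing notes, without versions. For the annotation release and strand setting nothing is stated. RSEM can divide reads between near-identical genes, but 8 of the 9 kinases had whole values in every library, Brsk1 being the exception, and their 3 pseudogene rows held 0 counts. Expected counts were rounded, genes kept with filterByExpr (15978) and libraries scaled with TMM. Genotypes were compared with edgeR 4.0.16 (R 4.3.3; glmQLFit and glmQLFTest, two-sided, Benjamini-Hochberg over all genes). The SE is the absolute log2 fold change over the square root of F. DESeq2 1.42.0 and limma 3.58.1 were alternatives, with other scalings and filters, a robust dispersion, the 10 most abundant genes removed, a replicate block and each library left out. The procedure was also run on simulated data with changes placed only in more abundant genes. That run does not bear on Mark1, Nuak1, Brsk1 or Brsk2, and no call here rests on it. Of the versioned gene IDs, 54435 were in GENCODE M21, which gave coordinates, lengths and sequences, all 9 kinases matching by symbol.

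The kinases and lists were chosen with earlier results of these data known. The rule for names took all 9 kinases, Stk11, the LKB1 complex, AMPK, SIK and relatives, from each other list its first gene and up to 4 called, from marker lists also the 3 highest, and the 2 genes closest in pattern to a called kinase. The text prints part of the marker genes. Intervals are at 95%, and those of counts, like the floor of 3 counts, cover counting error only.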

Additional observations from a re-analysis of the deposited data

How the results depend on the processing

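The number of called kinases was 1 in the 9 settings that kept all libraries and ranged from 0 to 1 when a library was left out, where 3 of the 6 fits called none. With a library left out, the number of called genes ranged from 1129 to 2780, against 2501, and that over the other lists from 12 to 36, against 29. With no filter 3440 genes were called, 40 of them in the other lists, and with DESeq2 3412 and 38. Directions turned for 5 uncalled genes with a library left out, over which log2 fold changes ranged from -0.0079 to 0.17 for Mark4, from -0.26 to 0.020 for Strada, from -0.34 to 0.011 for Stradb, from -0.25 to 0.047 for Ppp1r12a and from -0.070 to 0.35 for Cab39. Fewer libraries enter those fits. Whether replicate numbers pair the samples is not stated and could not be settled from 3 libraries per group. Deviations of same-numbered libraries correlated at 0.13, -0.021 and 0.11, those of other pairs at -0.17 to 0.088. With the replicate block 2880 genes, 1 kinase (Nuak2, log2 fold change -1.04, edgeR adjusted p = 0.015) and 28 genes of the other lists were called, with 0 of 8 fibroblast markers against 4, and with Dixdc1 called. Mark1, Nuak1, Brsk1 and Brsk2 were not called on 3 to 95 counts summed per group. Counting intervals of the ratio leave out 1 for Mark1, Brsk1 and Brsk2 but not for Nuak1, and cover no spread between libraries, such as the 11, 1 and 6 Mark1 counts in sgNeo.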
